A study of Homo sapiens
Mus musculus and Mus musculus and Homo sapiens with 16 samples.

Results

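The genes described here are the tumor necrosis factor (TNF) and lymphotoxin ligands that a lymphoma cell can present to its stroma, and the receptors with which the stroma can read them: TNF, LTA and LTB in REC-1, a human mantle cell lymphoma (MCL) line, and Tnfrsf1a, Tnfrsf1b and Ltbr in MS-5, a mouse stromal line derived from bone marrow. They were chosen by name, and are 6 of the 107722 genes in the deposited count tables, 3 of 58051 human and 3 of 49671 mouse genes. The series holds 16 RNA-seq libraries in 4 groups of 4. REC-1 cells were cultured alone (Sep), or were taken from a 24 h coculture with MS-5 cells, either from the suspension (Susp) or as cells adhered to the stromal layer (Adh), and MS-5 cells were also cultured alone. Per the labels, mono- and cocultures shared 1 medium with fetal bovine serum, whereas the study's methods give lymphoma lines another medium for routine maintenance, so a difference in medium between Sep and the cocultured cells was not tested. No group was treated with a drug, and each cell type is 1 cell line. Adh RNA is a mixture of adhered REC-1 and MS-5 cells whose reads were split by species in silico, so these 4 libraries give human counts for Adh cells and mouse counts for MS-5 cells in coculture.

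TNF is made as a trimer on the cell surface and is released by the protease ADAM17, whereas lymphotoxin-alpha (LTA) is secreted. Both bind TNFR1 (Tnfrsf1a), the broadly expressed receptor that recruits TRADD and RIPK1, and TNFR2 (Tnfrsf1b), which recruits TRAF2 directly. Human TNF is known to bind mouse TNFR1 well and mouse TNFR2 poorly. Lymphotoxin-beta (LTB) holds LTA at the surface in a mixed trimer that binds the lymphotoxin-beta receptor (Ltbr), a receptor of stromal rather than lymphoid cells that signals through TRAF3 and NIK (Map3k14) to the p52 and RelB form of NF-kB. In lymph nodes and spleen, this axis lets B cells instruct stromal cells to make adhesion molecules and homeostatic chemokines.

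The ligand genes lie side by side in the class III region of the major histocompatibility complex on chromosome 6 of GRCh38. LTA spans positions 31572054 to 31574324 and TNF 31575565 to 31578336, both on the plus strand, and LTB spans 31580525 to 31582522 on the minus strand. On mouse chromosome 6 (GRCm38), Ltbr (125306571 to 125313885, minus strand) and Tnfrsf1a (125349362 to 125362484, plus strand) are also close to each other, whereas Tnfrsf1b is on chromosome 4 (145213463 to 145246870, minus strand). Counts were summed over the exons of each gene. The 200 bases before the outermost annotated start of TNF and of LTB are shown, since these neighbors are the ligand genes that REC-1 cells expressed at levels that could be tested. Capitals mark TATAAA, searched on the strand of the gene.
TNF, hg38 chr6:31575365-31575564, plus strand: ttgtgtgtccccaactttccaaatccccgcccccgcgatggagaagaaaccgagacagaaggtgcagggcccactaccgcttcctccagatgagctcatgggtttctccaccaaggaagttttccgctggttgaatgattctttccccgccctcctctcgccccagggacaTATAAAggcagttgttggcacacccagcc
LTB, hg38 chr6:31582523-31582722, minus strand: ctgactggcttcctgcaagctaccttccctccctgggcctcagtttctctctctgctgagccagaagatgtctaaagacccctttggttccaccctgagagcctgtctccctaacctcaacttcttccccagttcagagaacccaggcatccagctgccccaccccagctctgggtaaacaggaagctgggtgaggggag

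TATAAA was found at -29 to -24 from the start of TNF and not in the LTB window. It was present in 1174 (5.86%) of 20032 windows of 200 bases before protein-coding genes. The kappa-B letters GGGNNNTTCC, searched on both strands, were in 939 (4.69%) of these windows and in neither the TNF nor the LTB window, which says only that these letters are not within these 200 bases. The GC content was 56.5% for TNF and 57.5% for LTB.

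Human counts per library ranged from 7758979 to 21467832 with Adh libraries at 7758979 to 13241751. For mouse counts, MS-5 libraries held 10097555 to 17397651 when grown alone and 29495404 to 34615602 in Adh. Of the Adh counts, 23.2% ± 4.71 (SD, n = 4) were human. Susp replicate 2 stood apart from the other Susp libraries, with a root mean square distance of 0.504 on the log2 scale of CPM (counts relative to the TMM-scaled library total) from the mean of the others, against 0.282 to 0.374 for replicates 1, 3 and 4. Sep replicate 1 was at 0.450 against 0.336 to 0.357 for the other Sep libraries, and Adh replicate 3, the shallowest library, at 0.538 against 0.410 to 0.460. The lines carried their markers: 8 of 9 B cell and MCL genes were above 1 CPM in every REC-1 group, with CD5 below 1 CPM, and MS-5 cells had 8 of 11 stromal genes above 1 CPM, while Thy1, Dcn and Lum had no counts in any of the 8 libraries. Of 14 markers of other human cells, 11 to 12 were under 1 CPM in each group, and NCAM1 had no counts. Their summed level was 22.3 to 27.0 CPM in Sep, 33.2 to 40.3 CPM in Susp and 31.7 to 37.2 CPM in Adh libraries, most of it PECAM1 (18.7, 30.3 and 25.6 CPM), which was called higher in Susp than in Sep cells (log2 fold change 0.70, edgeR adjusted p = 0.00385), and its part in the differences below was not tested. Susp replicate 2 also had REL, an NF-kB subunit gene, at 17.0 CPM against 109 to 131 in the other Susp libraries. In these bulk RNA libraries, a lower level in every cell and fewer expressing cells cannot be told apart.

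REC-1 cells expressed LTB strongly, TNF weakly and LTA hardly at all. Per length, LTB was at 40.7 ± 6.28 RPKM (CPM per kilobase of exon; SD, n = 4) in Sep, 49.4 ± 15.7 in Susp and 35.02 ± 7.49 in Adh cells, and TNF at 2.46 ± 0.498, 1.29 ± 0.374 and 2.26 ± 0.324 RPKM. The lowest LTB library (26.1 RPKM) lay far above the highest TNF library (2.85 RPKM), so this order held in all 12 libraries.

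TNF was lower in Susp cells than in the other REC-1 groups, but the differences did not pass the adjusted threshold. Sep replicates 1 to 4 were at 4.17, 4.602, 2.93 and 4.78 CPM, from 53, 55, 28 and 60 counts. Susp replicates 1 to 4 were at 1.46, 2.95, 1.93 and 2.28 CPM, from 22, 48, 40 and 34 counts. Adh replicates 1 to 4 were at 4.06, 4.43, 3.34 and 3.34 CPM, from 54, 46, 26 and 26 counts. All 4 Adh libraries lay above all 4 Susp libraries, Susp and Sep libraries touched (Susp replicate 2 was just above Sep replicate 3), and Adh and Sep libraries overlapped. The share of all tested genes whose Adh and Susp libraries separate like this was not computed.

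**Figure D1:**
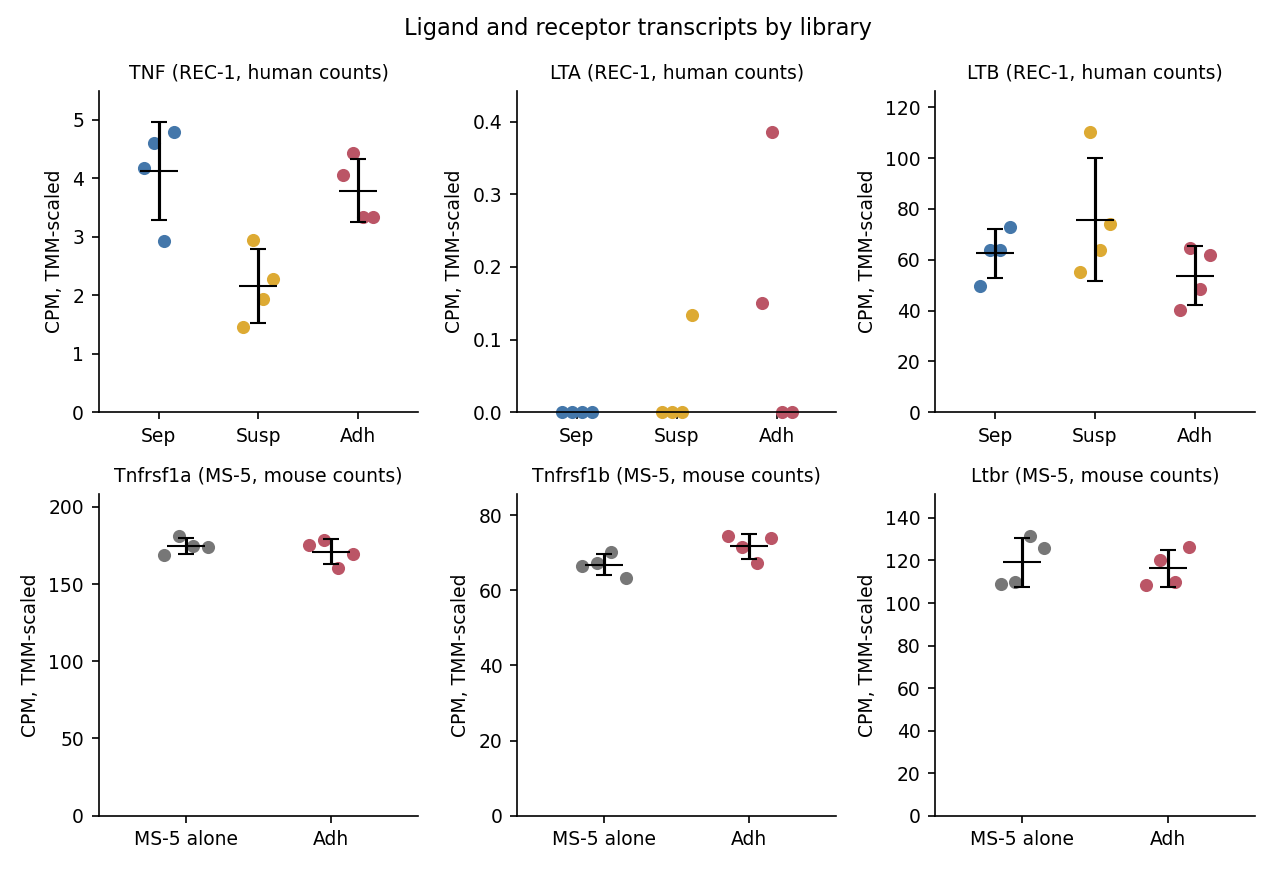
Level of each ligand in the REC-1 groups and of each receptor in MS-5 cells, in TMM-scaled CPM (y axis, starting at 0). Points are libraries in the order of their replicate number, and bars are the mean ± SD of 4 libraries, left out for LTA, which had 8 counts in all. TNF is at 1.46 to 2.95 CPM in Susp and at 3.34 to 4.43 CPM in Adh libraries, and the receptors overlap between MS-5 alone and Adh.

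Between Adh and Susp cells, the question was what sets adhered lymphoma cells apart from those in suspension. TNF had a log2 fold change of 0.82 (SE 0.26, 95% interval 0.28 to 1.36, 1.77-fold, edgeR quasi-likelihood test, adjusted p = 0.123). A gene was called at an adjusted p of at most 0.05 and a change of at least 1.5-fold. Neither TNF nor LTB was called, where 0.778% of the 12861 tested genes were, 0.109% higher and 0.669% lower in Adh cells. At an unadjusted p below 0.05 both ligands passed, as did 2316 of all genes (18.01%). DESeq2, which called more genes than edgeR in every comparison, placed TNF just past the threshold (log2 fold change 0.84, adjusted p = 0.0499). Without Susp replicate 2, the highest Susp library, TNF had a log2 fold change of 1.02 and an edgeR adjusted p of 0.0681, and without Adh replicate 3 it had 0.87 and 0.178. With each library left out in turn, the edgeR adjusted p of TNF ranged from 0.0681 to 0.299.

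Between Susp and Sep cells, that is unattached cells with and without stroma in the culture, TNF had a log2 fold change of -0.94 (SE 0.25, 95% interval -1.47 to -0.41, edgeR adjusted p = 0.0890). It was not called, with a background of 0.731% of tested genes called, 0.428% higher and 0.303% lower. This difference passed the threshold when Susp replicate 2 was left out (log2 fold change -1.14, edgeR adjusted p = 0.0416) and with DESeq2 (-0.95, adjusted p = 0.0163). Without Sep replicate 1 it was -0.93 (edgeR adjusted p = 0.170). With each library left out in turn, the edgeR adjusted p of this difference ranged from 0.0416 to 0.239. Between Adh and Sep cells, the log2 fold change of TNF was -0.12 (SE 0.25, 95% interval -0.65 to 0.41, edgeR adjusted p = 0.834), an interval that still allows a change past 1.5-fold downward, beside 2.4% of genes called (0.583% higher and 1.82% lower). The 3 contrasts share libraries with each other, so their values for TNF are not independent of one another. All TNF values rest on 22 to 60 counts per library.

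LTB, the anchor of the mixed lymphotoxin trimer, did not follow TNF. Sep replicates 1 to 4 were at 49.5, 64.0, 63.8 and 72.8 CPM, Susp at 55.2, 110.1, 64.0 and 73.9 CPM, and Adh at 40.1, 64.7, 48.4 and 61.7 CPM. All groups overlapped, and the highest value, that of Susp replicate 2, raised the Susp mean from 64.4 ± 9.36 (SD, n = 3) to 75.8 ± 24.1 (SD, n = 4) CPM. The log2 fold change between Adh and Susp cells was -0.50 (SE 0.19, edgeR adjusted p = 0.206), and -0.25 (adjusted p = 0.395) without that library. Over all alternatives this adjusted p ranged from 0.00294, without the low-count filter, to 0.454, and the change stayed under 1.5-fold wherever it was at most 0.05. Between Susp and Sep cells it was 0.28 (SE 0.19, adjusted p = 0.454), and 0.03 (adjusted p = 0.966) without that library. Between Adh and Sep cells it was -0.22 (SE 0.20, adjusted p = 0.568).

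**Figure D2:**
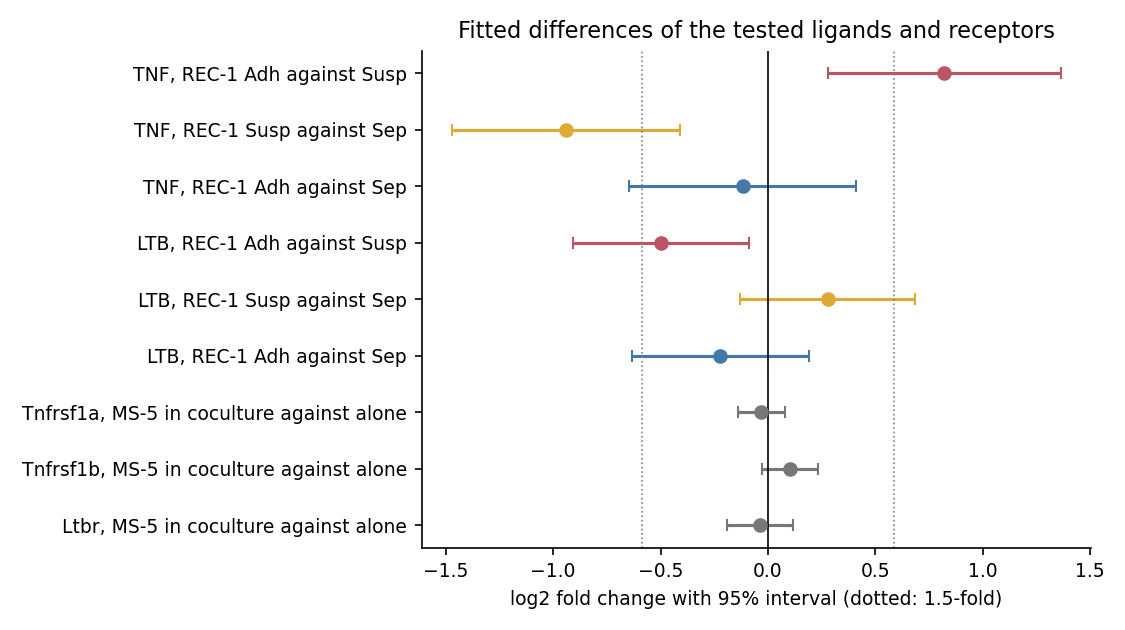
Log2 fold change (x axis) of the tested ligands and receptors in each comparison, with its 95% interval from edgeR; dotted lines mark 1.5-fold. The TNF estimates are 0.82 for Adh against Susp and -0.94 for Susp against Sep, and the 3 receptor intervals lie within the dotted lines.

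The balance of the ligands within a library, which does not depend on how libraries are scaled, was examined after the values were seen and is given without a test. Sep replicates 1 to 4 held 11.9, 13.9, 21.8 and 15.2 LTB counts per TNF count. Susp replicates 1 to 4 held 37.8, 37.3, 33.1 and 32.4, and Adh replicates 1 to 4 held 9.89, 14.6, 14.5 and 18.5. The Susp libraries thus lay apart from the others, at 35.2 ± 2.81 against 15.7 ± 4.29 in Sep and 14.4 ± 3.52 in Adh cells (SD, n = 4 each). The Susp ratios rest on 22 to 48 TNF counts per library, so their small SD is no measure of counting error. The ratio is not independent of the TNF values above. By the means of the log2 ratios, Susp and Sep cells were 2.29-fold apart. Susp replicate 2, with the most LTB counts, was within the range of the other Susp libraries.

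**Figure D3:**
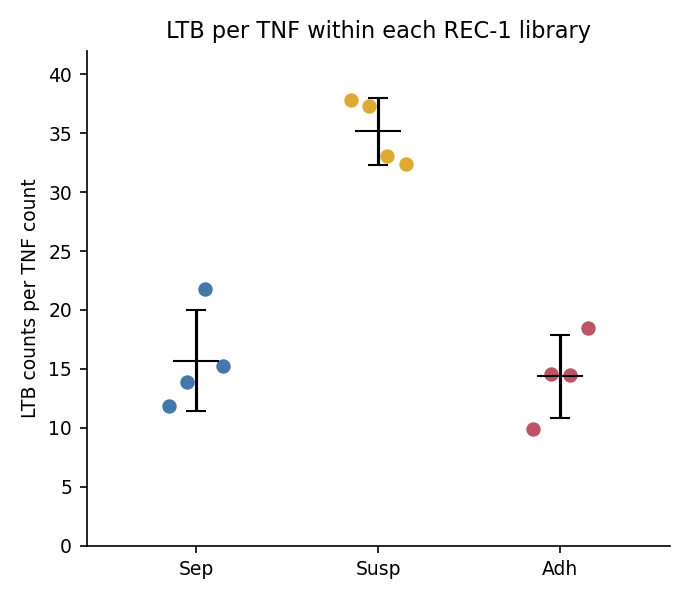
LTB counts per TNF count in each REC-1 library (y axis, starting at 0) for Sep, Susp and Adh cells; points are libraries and bars are the mean ± SD of 4. The 4 Susp libraries lie between 32.4 and 37.8, above the 9.89 to 21.8 of the other 8.

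LTA, the only lymphotoxin subunit that is secreted on its own, was at the limit of detection. Of 8 counts in the 12 REC-1 libraries, 4 were in Adh replicate 2, 2 in Adh replicate 1 and 2 in Susp replicate 4, and the other 9 libraries held 0. In Sep cells, 0 of 46135538 counts allow a level of up to 0.0650 CPM, which covers counting error only. LTA did not pass the low-count filter and was not tested.

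REC-1 cells had little of the receptors that MS-5 cells carried, apart from TNFR2. TNFRSF1A had 2 counts and LTBR 0 counts over all 12 libraries, whereas TNFRSF1B was at 173 ± 16.2, 179 ± 16.5 and 174 ± 14.6 CPM in Sep, Susp and Adh cells (SD, n = 4). The log2 fold changes of TNFRSF1B were between -0.04 and 0.05 in the 3 comparisons, with edgeR adjusted p from 0.808 to 0.979. TNFRSF14, the receptor that LTA shares with LIGHT, was at 7.55, 10.2 and 6.96 CPM in the same order. It was not called in any comparison, with an unadjusted p of 0.0449 (edgeR adjusted p = 0.266) between Adh and Susp cells.

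In the Adh libraries, where both species were counted from the same RNA, ligand counts were human and receptor counts mouse. LTB had 2064 human counts beside 2 of mouse Ltb, and TNF had 152 beside 4 of mouse Tnf. Tnfrsf1a had 22097 mouse counts beside 2 of human TNFRSF1A, and Ltbr had 15007 beside 0. Tnfrsf1b was the exception, with 9281 mouse and 6793 human counts of TNFRSF1B, which put 36.3% to 48.9% of the pair on the lymphoma side although only 18.3% to 28.2% of all counts were human. Lta had 20 mouse and 6 human counts. MS-5 cells alone had 4 counts of Tnf, 4 of Lta, 0 of Ltb and 0 of Tnfsf14 (LIGHT) over 4 libraries.

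**Figure D4:**
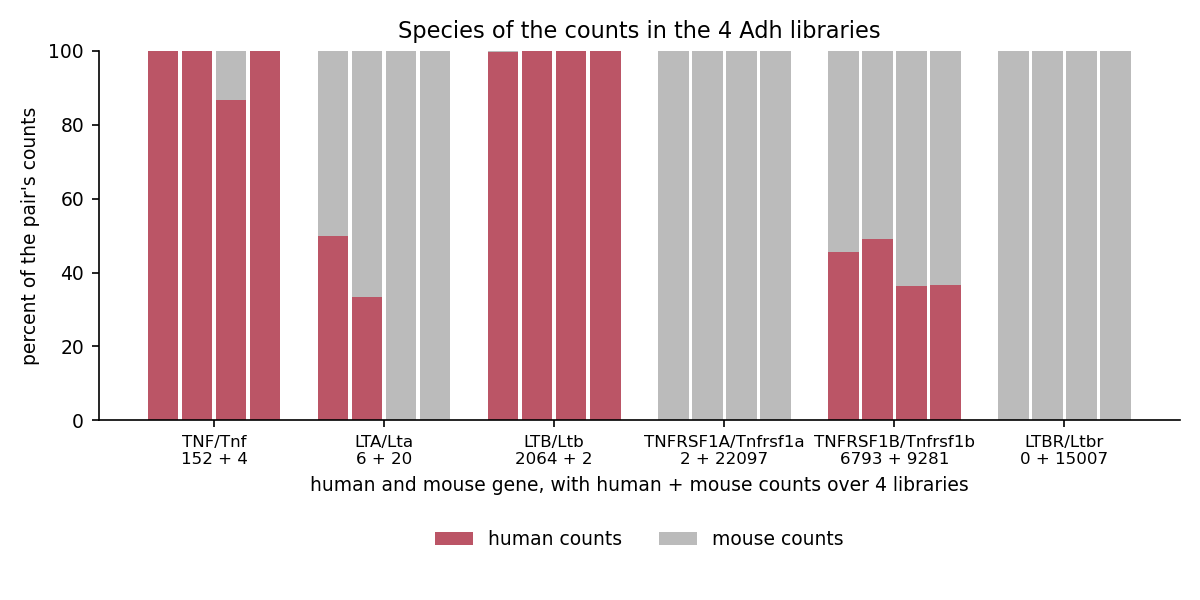
Percent of the counts of each human and mouse gene pair (y axis) that were assigned to human or to mouse in Adh replicates 1 to 4 (bars from left to right), with the summed human and mouse counts under each pair. TNF and LTB are human, Tnfrsf1a and Ltbr are mouse, and TNFRSF1B and Tnfrsf1b are mixed; LTA and Lta rest on 6 and 20 counts.

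All 3 receptors were well expressed in MS-5 cells, and none differed detectably between coculture and culture alone. Per length, Tnfrsf1a was highest at 67.4 ± 1.99 RPKM alone and 66.0 ± 3.08 in coculture, Ltbr followed at 50.6 ± 4.83 and 49.4 ± 3.62, and Tnfrsf1b was lowest at 17.5 ± 0.744 and 18.8 ± 0.878 (SD, n = 4). The ranges of neighbors in this order did not overlap in either group.

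Tnfrsf1a was at 168.6, 181.2, 174.6 and 174.2 CPM in MS-5 replicates 1 to 4 alone, and at 175.1, 178.9, 160.6 and 169.3 CPM in Adh replicates 1 to 4. Its log2 fold change was -0.03 (SE 0.05, 95% interval -0.14 to 0.08, edgeR adjusted p = 0.885). Ltbr was at 109.1, 109.9, 131.5 and 126.0 CPM alone, and at 108.5, 120.3, 110.0 and 126.3 CPM in coculture. Its log2 fold change was -0.04 (SE 0.07, 95% interval -0.19 to 0.12, adjusted p = 0.906), and the groups overlapped widely. Tnfrsf1b was at 66.5, 67.3, 70.1 and 63.2 CPM alone and at 74.4, 71.4, 67.1 and 74.0 CPM in coculture, with 3 of 4 Adh libraries above every MS-5 library. Its log2 fold change was 0.10 (SE 0.06, 95% interval -0.03 to 0.23, adjusted p = 0.566). With edgeR, 0 of the 3 receptors were called, where 0.205% of 12201 tested mouse genes were, 0.041% higher and 0.164% lower in coculture. None of the receptors had an unadjusted p below 0.05 (11.3% of all tested mouse genes did), and DESeq2 called 0 of them. At this depth the intervals keep each receptor within 1.5-fold.

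The machinery below these receptors was present in MS-5 cells, and none of its tested genes was called. By edgeR, 0.205% of all tested mouse genes were called, so lists of these sizes would likely hold no call. Of 26 adaptor and complex genes, 25 were tested and 0 called by edgeR or DESeq2, with 4 at an unadjusted p below 0.05, beside 11.3% of all genes, and a median log2 fold change of 0.04 (median of all genes -0.00165). The most abundant were Tab2 (265 CPM alone and 268 in coculture), which links ubiquitin chains to the kinase TAK1, Chuk (203 and 197 CPM), a kinase of the inhibitor of NF-kB, and Cyld (167 and 151 CPM), a deubiquitinase. Of 11 NF-kB subunits and inhibitors, 10 were tested, 0 were called by either tool, and 0 had an unadjusted p below 0.05. Among these, Nfkb2 (79.1 and 75.3 CPM), the precursor of p52, and Relb (6.54 and 6.91 CPM) serve the pathway of Ltbr. Of 25 other TNF receptor superfamily genes, 11 were tested and 0 called by edgeR or DESeq2, with 2 at an unadjusted p below 0.05. The highest was Tnfrsf12a, the receptor of TWEAK, at 221 CPM alone and 214 in coculture. Of 6 genes that shed TNF receptors, 5 were tested and 0 called by either tool, with 0 at an unadjusted p below 0.05. Timp3, an inhibitor of ADAM17, had no counts.

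Of 36 genes that fibroblasts are known to induce in response to TNF, 21 were tested. In coculture 4 fell and 0 rose by edgeR, beside a background of 0.164% lower and 0.041% higher, and their median log2 fold change was -0.07. This list, like the others, was chosen with earlier results of these data known, so the background is no test of it. Ptgs2, the inducible cyclooxygenase, went from 187 ± 21.4 to 87.9 ± 13.5 CPM (SD, n = 4; log2 fold change -1.09, SE 0.10, edgeR adjusted p = 5.73e-05). Cxcl5 and Cxcl1, which attract neutrophils, went from 61.5 ± 20.7 to 24.7 ± 7.78 CPM (-1.31, SE 0.23, adjusted p = 0.0140) and from 6.99 ± 1.27 to 3.51 ± 0.291 CPM (-0.99, SE 0.17, adjusted p = 0.0107). Ccl2, the monocyte attractant, went from 117 ± 8.21 to 76.0 ± 4.82 CPM (-0.62, SE 0.07, adjusted p = 0.000264). In all 4 genes, every Adh library lay below every MS-5 library, which is likely for genes called by their p. How many of all tested genes separate in this way was not counted.

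Ccl7, a relative of Ccl2, passed the adjusted threshold but not the fold change, from 190 ± 8.005 to 138 ± 10.7 CPM (log2 fold change -0.46, edgeR adjusted p = 0.00168). Sod2, Nfkbia, Irf1 and Vcam1 were not called, with log2 fold changes of 0.03, -0.05, 0.09 and -0.03. Mmp13, a collagenase, had a log2 fold change of 0.66 (edgeR adjusted p = 0.165) and was called higher by DESeq2 (adjusted p = 0.0316), which called the same 4 genes lower. Icam1, Cxcl10 and Il6, classical TNF targets, were at or near 0 counts in both groups and could not be tested. The number of genes called lower was 2 without MS-5 replicate 3 and 2 without MS-5 replicate 4. Cxcl1 (adjusted p 0.0630 and 0.0522) and Cxcl5 (0.0587 and 0.0573) were lost without these libraries, Cxcl5 also without MS-5 replicate 2 (0.0579), and Ccl2 fell just under 1.5-fold without Adh replicate 3 (log2 fold change -0.58).

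**Figure D5:**
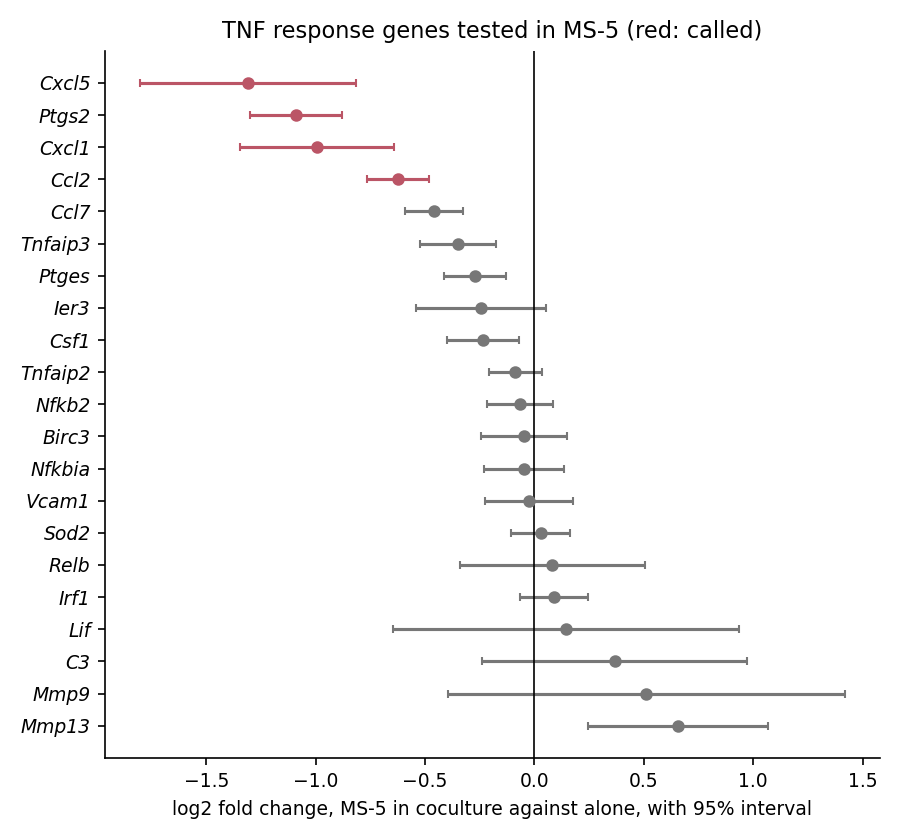
Log2 fold change between MS-5 cells in coculture and alone (x axis, 95% interval from edgeR) of the 21 tested TNF response genes of fibroblasts, with called genes in red. The 4 called genes, Cxcl5, Ptgs2, Cxcl1 and Ccl2, lie at -0.62 or lower, and the other 17 lie between -0.46 and 0.66.

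Of 14 genes of the lymphotoxin receptor response in stroma, 7 were tested and 0 called by edgeR or DESeq2, with 2 at an unadjusted p below 0.05, beside 11.3% of all genes, and a median log2 fold change of 0.08. By edgeR, 0.205% of all tested mouse genes were called, so a list of this size would likely hold no call. Cxcl12, which holds B cells in the marrow, passed the adjusted threshold at less than 1.5-fold, from 321 ± 50.2 to 442 ± 57.6 CPM (log2 fold change 0.46, edgeR adjusted p = 0.0486), with overlapping groups and an adjusted p of up to 0.172 when single libraries were left out. Cxcl13, the B cell attractant of follicles, had no counts, and Madcam1, an adhesion molecule, did not pass the filter.

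In REC-1 cells, other members of the TNF superfamily did change. Of 15 other ligand genes, 6 were tested, and in Susp against Sep cells 2 were called higher (background 0.428%). CD70, the ligand of CD27, was at 56.7, 73.2, 72.5 and 79.7 CPM in Sep replicates 1 to 4, at 102, 171, 129 and 121 CPM in Susp and at 82.9, 123, 91.0 and 115 CPM in Adh. Every Susp and every Adh library lay above every Sep library, a separation whose share over all tested genes was not computed. The log2 fold change of CD70 was 0.89 (SE 0.16, edgeR adjusted p = 0.00812) in Susp and 0.55 (SE 0.16, adjusted p = 0.0673) in Adh against Sep cells. TNFSF9, the ligand of 4-1BB, went from 8.88 ± 1.37 in Sep to 16.4 ± 3.93 CPM in Susp (log2 fold change 0.88, SE 0.18, adjusted p = 0.0231) and 14.6 ± 2.42 CPM in Adh cells (0.72, SE 0.19, adjusted p = 0.0438). Leaving out 1 library at a time, TNFSF9 was called in 8 of 12 fits between Susp and Sep cells and in 2 of 12 between Adh and Sep cells. Its adjusted p was highest without Sep replicate 2, at 0.0991 and 0.141. Between Adh and Susp cells, 0 of the 6 were called by edgeR (background 0.778%) or DESeq2, and CD70 alone had an unadjusted p below 0.05. CD70 (6583183 to 6604103, minus strand) and TNFSF9 (6531026 to 6535924, plus strand) both lie on chromosome 19.

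Of 20 genes that B cells induce in response to TNF and NF-kB, all were tested and 0 were called by edgeR in any of the 3 REC-1 comparisons, nor by DESeq2. The edgeR background was 0.778% for Adh against Susp, 0.731% for Susp against Sep and 2.4% for Adh against Sep. At an unadjusted p below 0.05 there were 8 between Adh and Susp cells, 8 between Susp and Sep cells and 6 between Adh and Sep cells, beside 18.01%, 16.7% and 20.2% of all tested genes. All 8 between Adh and Susp cells were higher in Adh. Between Susp and Sep cells, NFKB2 and BCL3 were higher in Susp and the others lower, and the 6 between Adh and Sep cells went both ways. In the same order, the list had median log2 fold changes of 0.21, -0.10 and 0.02, beside -0.005, -0.006 and -0.003 for all genes. TNFAIP3 and SOD2, named after their values were seen, passed the adjusted threshold at less than 1.5-fold. TNFAIP3, which encodes the NF-kB inhibitor A20, was at 119 ± 8.39, 80.2 ± 11.8 and 99.9 ± 9.63 CPM in Sep, Susp and Adh cells (SD, n = 4), with a log2 fold change of -0.57 between Susp and Sep cells (edgeR adjusted p = 0.0168). SOD2 was at 115 ± 5.68, 116 ± 4.97 and 148 ± 10.1 CPM, with a log2 fold change of 0.36 between Adh and Sep cells (adjusted p = 0.0214). Without Sep replicate 3, Susp replicate 1 or Susp replicate 4, TNFAIP3 passed 1.5-fold too, with log2 fold changes of -0.61, -0.62 and -0.60. Its adjusted p rose above 0.05 without Sep replicate 2 (0.0745) and without Sep replicate 4 (0.0511). That of SOD2 rose above 0.05 without Sep replicate 2, 3 or 4 (0.0837, 0.0774 and 0.0768) and without Adh replicate 3 or 4 (0.0691 and 0.0743). The abundant CD83, NFKB1 and BIRC3 were not called. TRAF1, which the study lists among the genes changed by adhesion in both of its lymphoma lines, was not called here either. Its log2 fold change between Adh and Susp cells was 0.87 (edgeR adjusted p = 0.198).

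By the correlation of log2 CPM over the 12 REC-1 libraries, the genes most like TNF among 9637 were FAM76A (r = 0.868), NFKBIA (0.864) and PANK2 (0.851). NFKBIA, which encodes the main inhibitor of NF-kB, was at 123 ± 7.54, 97.8 ± 10.1 and 115 ± 4.12 CPM in Sep, Susp and Adh cells, with log2 fold changes of -0.33 between Susp and Sep (edgeR adjusted p = 0.0893) and 0.24 between Adh and Susp cells (adjusted p = 0.190). Those most like LTB among 9636 were MRPL52 (r = 0.973), CCM2 (0.969) and ACAA1 (0.955). Over the 8 mouse libraries and 9743 genes, Fam83h (0.959), Itga5 (0.954) and Dolk (0.947) were most like Tnfrsf1a. C1ra (0.926), Cln6 (0.920) and Ralgds (0.920) were most like Tnfrsf1b, and Calm3 (0.980), Itm2c (0.979) and Mvd (0.965) most like Ltbr. These are the highest of many correlations over few libraries, which share depth and scaling, and carry no test.

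The genes around and upstream of TNF gave few calls. By edgeR, 0.778%, 0.731% and 2.4% of all tested genes were called for Adh against Susp, Susp against Sep and Adh against Sep. Lists of these sizes would likely hold few calls at such shares. Of 11 neighbors in the locus, 7 were tested, and DDX39B, an RNA helicase gene (31530219 to 31542448, minus strand), was called lower in Adh than in Sep cells, from 94.1 ± 12.7 to 59.1 ± 3.87 CPM (log2 fold change -0.67, SE 0.11, edgeR adjusted p = 0.00287; background 1.82%). Without Sep replicate 2 its log2 fold change was -0.57, under 1.5-fold. It was not called between Adh and Susp cells (-0.47, edgeR adjusted p = 0.0603). The larger neighbors PRRC2A and BAG6 were at 599 and 369 CPM in Sep cells and were not called in any comparison. Of 9 genes that stabilize or degrade TNF mRNA, such as the abundant KHSRP, HNRNPD and ELAVL1, all were tested and 0 called in the 3 comparisons by either tool, with 2, 3 and 2 at an unadjusted p below 0.05 for Adh against Susp, Susp against Sep and Adh against Sep, where 18.01%, 16.7% and 20.2% of all genes were. Of 6 genes of TNF shedding, 4 were tested and 0 called by either tool, with 0, 0 and 1 below 0.05. ADAM17, the TNF convertase, was at 44.04, 36.8 and 40.3 CPM in Sep, Susp and Adh cells. Of 14 inducers of TNF and LTA in B cells, 11 were tested and 0 called by edgeR, with 2, 1 and 3 below 0.05. NFATC1, a transcription factor of calcium signaling, passed the adjusted threshold at less than 1.5-fold between Adh and Sep cells, from 310 ± 51.6 in Sep to 224 ± 29.4 CPM in Adh (SD, n = 4; log2 fold change -0.47, edgeR adjusted p = 0.0402), with overlapping groups and an adjusted p of up to 0.124 when single libraries were left out. DESeq2 called 1, EGR3, between Adh and Sep cells (log2 fold change 1.03, adjusted p = 0.0356), where it called 527 of the 12861 tested genes. EGR3 was also called by edgeR without Sep replicate 1 or without Susp replicate 2.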

How the data were processed

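Whole-number counts per gene were deposited without normalization. Per the labels and methods, the authors extracted poly(A) RNA, split read pairs by species with Xenome, aligned them to GRCh38 or GRCm38 with STAR 2.5.1b and counted exons with featureCounts (Subread 1.5.2), without multi-mapping reads. In every library 65.6% to 79.8% of the counts from 1 to 10 were even, so low counts may hold mates of a pair and intervals overstate precision. The 20 columns of other samples were not used.

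Counts were analyzed in R 4.3.3 with edgeR 4.0.16 (filterByExpr, TMM, quasi-likelihood F-test), in 1 model of 12 REC-1 libraries and 1 of 8 mouse libraries, with Benjamini-Hochberg adjustment over all tested genes. The labels do not say whether replicates are separate cultures; the study describes them as independent experiments. RPKM, positions and promoter windows used GENCODE release 44 and, for mouse, M21; sequences came from hg38. In simulated counts with 200 genes changed 2-fold, 148 were called with 10 false calls for Adh against Susp (12861 genes) and 171 with 6 for MS-5 (12201 genes). The changed genes were drawn at random from all tested genes, and counts were drawn independently. These numbers therefore do not give the power for a gene with as few counts as TNF. Alternatives were DESeq2 1.42.0, a replicate block, upper-quartile scaling, other filters, thinning, no fold minimum, models of the compared groups alone and each library left out; halved counts and LTB per TNF count without single libraries were added after seeing the data. DESeq2 gave no adjusted p for some listed genes of low counts. The genes and lists were chosen with earlier results of these data known. Listed genes were named if called, or as the most abundant of those not called (up to 4 a list); fold changes of other listed genes were given after their values were seen.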

Additional observations from a re-analysis of the deposited data

Results flagged for a closer look

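In 10 of 128 groups of 4 libraries, 1 library lay far from the other 3 by Dixon's criterion. These groups cover the ligands, the receptors and the listed genes with an unadjusted p below 0.05 in a comparison. Chance gives about 1 in 20 for groups not chosen by a test, a rate that need not hold here. Among the ligands, LTA in Susp replicate 4 was at 0.134 CPM, from 2 counts, against 0 in the others. Among genes called, Ptgs2 was at 108 CPM in Adh replicate 1 against 78.9 to 83.4 in the other Adh libraries, still below every library of MS-5 alone, and DDX39B was at 113 CPM in Sep replicate 2 against 86.0 to 88.7. Without Sep replicate 2, DDX39B had a log2 fold change of -0.57 between Adh and Sep cells, under 1.5-fold. Of the genes not called, NFKB2 in Susp replicate 2 was at 130 CPM against 95.2 to 97.8 and CREB1 in Susp replicate 2 at 30.9 against 58.8 to 62.7. NFKBIA in Adh replicate 1 was at 121 CPM against 113 to 114, and EGR3 in Adh replicate 1 at 2.10 against 3.37 to 3.60. Mouse Cflar in Adh replicate 1 was at 142 CPM against 131 to 132, BCL2A1 in Sep replicate 1 at 33.8 against 25.6 to 26.8, and NFATC1 in Susp replicate 1 at 248 against 282 to 289. Of these 10, 4 were in Adh replicate 1 and 2 in Susp replicate 2.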

How the results depend on the processing

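Every fitted difference of TNF and LTB kept its direction under all alternatives run. TNF passed the threshold in 4 fits: with DESeq2 between Adh and Susp (log2 fold change 0.84) and Susp and Sep cells (-0.95), and between Susp and Sep cells with the replicate block (-0.94, edgeR adjusted p = 0.0465) and without Susp replicate 2. With single libraries left out, TNF ranged from 0.68 to 1.02 (Adh against Susp), from -1.14 to -0.80 (Susp against Sep) and from -0.24 to -0.04 (Adh against Sep), and LTB from -0.62 to -0.25, from 0.03 to 0.40 and from -0.32 to -0.10. Tnfrsf1a ranged from -0.053 to 0.00257 and Ltbr from -0.0788 to 0.021, which crossed 0 without Adh replicate 3 and without MS-5 replicate 3, and Tnfrsf1b from 0.08 to 0.14. LTB per TNF count, as a difference of log2 means between Susp and Sep cells, was 1.08 to 1.37 with single libraries left out, and -0.26 to 0.05 between Adh and Sep cells. Counts halved and thinned changed no call of a ligand or receptor.

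For Adh against Susp, the study reported more REC-1 genes at the same cutoffs than the main fit called here. Numbers of called genes for Adh against Susp, Susp against Sep, Adh against Sep and MS-5 were 100, 94, 309 and 25 in the main fits. They were 282, 173, 527 and 29 with DESeq2, 341, 217, 503 and 45 without the low-count filter, and 121, 131, 438 and 94 without a fold minimum. With the replicate number as a block they were 281, 175, 384 and 45. With single libraries left out they ranged from 51 to 165, 64 to 135, 143 to 519 and 8 to 36. The cause of these differences was not tested. TNF response genes of MS-5 called lower numbered 2 to 4 with single libraries left out, and 1 was called higher with the replicate block, with DESeq2 and without the low-count filter.

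The replicate numbers were not taken as pairs: the deviations of same-numbered libraries correlated above 0.1 for 1, 1, 3 and 2 of 4 numbers in the 4 comparisons, and not every library correlated best with its own number (2, 1, 3 and 3 of 4). Same-numbered libraries share a digit in their sample codes, but the labels do not say what it marks. Low correlations cannot show that the samples are unpaired, so the fits with the block are given for the case that they are paired. LTB was lower in Adh than in the same-numbered Susp library in 4 of 4 numbers, and with the block its log2 fold change was -0.48 (edgeR adjusted p = 0.0275), under 1.5-fold. The share of all tested genes with the same direction in 4 of 4 numbers was not computed, so this count alone carries no weight. Depth limits what can be said of LTA and of genes at a few CPM.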
